A study of Mus musculus with 6 samples.

Results

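The genes described here are 10 transcription factors that specify photoreceptors or set rod and cone identity: Nrl, Nr2e3, Rorb, Otx2, Prdm1, Rax, Neurod1, Sall3, Mef2c and Mef2d. They were taken by symbol from tables of 24346 gene symbols, all 10 were in the tables, and all 10 were among the 14325 genes that passed a filter on low values (0.5 FPKM or more, averaged over all libraries). The 6 libraries hold RNA of whole mouse retina, taken at postnatal day 12. In 3 control libraries the genotype was Panky+/-;Panky-like+/-;Nrl-/-, and in 3 triple-deficient libraries it was Panky-/-;Panky-like-/-;Nrl-/-. Both groups therefore lack functional Nrl, which enriches the retina for cone-like cells, and the controls are heterozygous for Panky and Panky-like rather than wild type. The alleles, the strain and the animals behind each library are not named in the sources used here, so the p-values cover only the spread between these libraries. Values are FPKM (fragments counted on a gene, divided by transcript length and by library size) as deposited, 1 value per gene and library, and the question is whether loss of both Panky genes alters the level of these factors.

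Photoreceptors arise from retinal progenitors through a hierarchy of transcription factors. Homeobox factors such as RAX and OTX2 commit cells to the photoreceptor lineage, PRDM1 holds them there against the bipolar fate, and RORB acts upstream of NRL, which together with NR2E3 directs a precursor to become a rod and silences cone genes. Without NRL, precursors become cells resembling short-wavelength cones, whose genes depend on factors such as NEUROD1 and SALL3. Panky, the symbol Ankrd33 in these tables, is an ankyrin repeat co-repressor of photoreceptors that acts on the homeobox factor CRX. Ankrd33b, the paralog of Ankrd33, is treated as Panky-like, although the labels pair no symbol with that name.

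Several of these factors bind short DNA sequences, and the RefSeq promoter table for GRCm38.p6 held 14 windows for 8 of the 10 genes, each from 250 bases before to 50 bases after an annotated start. Sall3 and Rax were not matched. Letters searched on both strands were TAATCC (bound by OTX2 and CRX), TAATTA (bound by RAX and related homeodomains), TGCTGA (the half-site of NRL and other Maf factors), AGGTCA (the half-site of nuclear receptors such as RORB) and CAGATG (an E-box bound by NEUROD1). TAATCC was in 1 of the 14 windows, against 7.06% of 32851 windows of all genes, and TAATTA was in 3 of 14, against 5.29%. TGCTGA was in 6 of 14 (19.5% of all windows), AGGTCA in 2 of 14 (16.3%) and CAGATG in 3 of 14 (17.2%). The windows are not separate genes, since Otx2 has 4, some of which overlap, and Mef2c has 3. By gene, TAATCC and AGGTCA were each found in 1, TAATTA in 2, CAGATG in 3 and TGCTGA in 5. The stretches that hold the letters of one member's site near a start of Nrl, Neurod1 or Otx2 are shown because these 3 genes span the rod, cone and lineage roles. The motif letters are in capitals, all stretches are read on the minus strand, and none of the marked sites shares a base with another.
Nrl, chr14:55524253-55524282, with CAGATG: ctcgaggaccaCAGATGatctcagggaacc
Neurod1, chr2:79456666-79456695, with TGCTGA on the opposite strand at 2 adjacent places: cgcccgcgcTCAGCATCAGCAactcggcta
Otx2, chr14:48665315-48665344, with TAATTA and, on the opposite strand, TAATCC: gTAATTAagggacgtgtgcccctcGGATTA
Otx2, chr14:48665256-48665285, with TAATTA at 2 places: taTAATTAattctcggacgaggTAATTAtt
In GENCODE M21 each stretch overlaps an exon of at least 1 transcript of its own gene. The Neurod1 stretch also overlaps an exon of Cerkl and the gene Gm26755. A match describes the letters only and is not evidence of binding.

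Markers of cones were high in these libraries, and Gnat1, a defining marker of rods, was near 0. The 17 rod genes listed below nonetheless summed to 2789 to 2914 FPKM per library, and 15 of them passed the filter. Crx, the homeobox factor of all photoreceptors, was at 404 to 445 FPKM and Opn1sw, the short-wavelength cone opsin, at 1406 to 1568 FPKM, whereas Gnat1, the rod transducin subunit, was at 0.269 to 0.514 FPKM over the 6 libraries. Ankrd33b was at 32.6 to 35.4 FPKM in controls and 1.31 to 1.80 FPKM in triple-deficient libraries, and Ankrd33 at 104 to 109.7 and 50.5 to 59.6 FPKM. Triple-deficient library 3 stood apart in base composition. Its deviations from the mean of all libraries correlated with the GC content of the genes at Spearman -0.59 across genes, which are not independent, against 0.07 to 0.30 in the other 5. For some of the genes below, Rax, Sall3, Mef2d, Insm1, Tbx2, Prdm13, Mafa and Slc24a2 among them, values without that library or with trends in GC content and transcript length removed are also given.

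None of the 10 factors passed the test between genotypes (limma, Benjamini-Hochberg adjusted p below 0.05 over all genes), where 4 of 14325 genes, 0.0279%, passed. Those 4 include the targeted genes themselves, Ankrd33b and Ankrd33 (limma adjusted p = 4.56e-07 and 0.00274). The adjusted p-values of the 10 ran from 0.508 to 0.975. Before adjustment, 5 factors had p below 0.05 in the limma fit, beside 5.09% of all genes tested. Of these, 3 (Nrl, Nr2e3 and Neurod1) had higher values in triple-deficient retinas, beside 1.76% of all genes, and 2 (Sall3 and Rax) had lower values, beside 3.33%. The groups did not overlap for 4 factors, beside 10.5% of all genes. Nrl and Nr2e3 were the 2 that lay higher, beside 4.86% of all genes, and Sall3 and Rax the 2 that lay lower, beside 5.64%. These shares are not independent evidence, because the factors were chosen with earlier results of these data known. The median change of the 10 was 0.00277 on the log2(FPKM + 1) scale and that of all genes tested 0.00339. For all 10 factors the 95% confidence interval allowed less than a 1.5-fold difference of FPKM + 1, upward or downward, which held for 96.8% of all genes tested. With 3 libraries against 3, an exact permutation test of a single gene (20 assignments, two-sided) cannot give a p below 0.1.

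**Figure D1:**
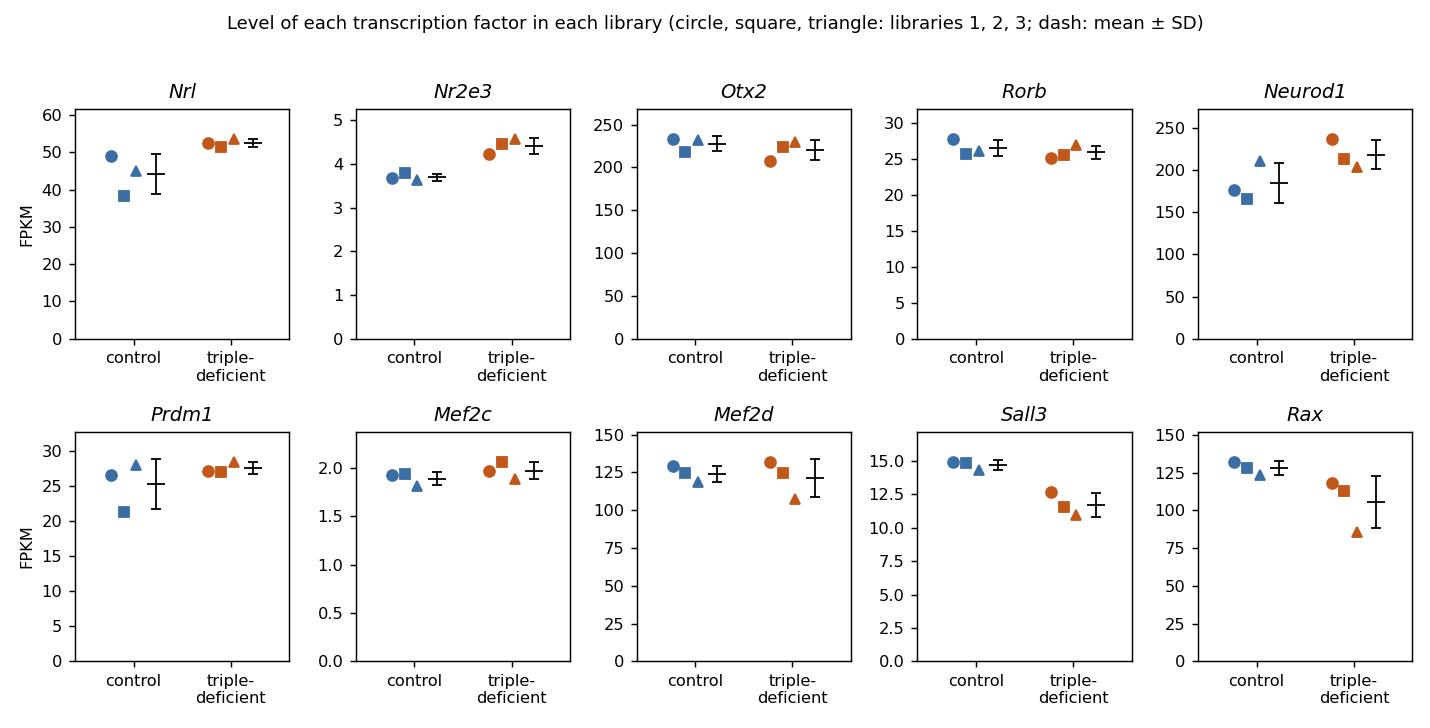
FPKM of each of the 10 transcription factors (vertical axes from 0) in 3 control (blue) and 3 triple-deficient (orange) libraries, with the mean and SD of each group in black. Nrl and Nr2e3 are higher and Sall3 and Rax lower in every triple-deficient library than in every control, and the other 6 factors overlap.

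The rod determinants come first. Nrl, a leucine zipper factor of the Maf family on chromosome 14 (55518978 to 55524981), was at 49.2, 38.3 and 45.0 FPKM in control libraries 1, 2 and 3 and at 52.6, 51.3 and 53.7 FPKM in triple-deficient libraries 1, 2 and 3. Every triple-deficient library lay above every control, and the controls spread more widely, with a coefficient of variation of 12.3% against 2.21%. The mean was 18.9% higher, a log2 difference of 0.25 (SE 0.082, 95% interval 0.06 to 0.44, limma adjusted p = 0.861). Control library 2 had the lowest value, and without it the change was 0.16. The mice are Nrl-/-, and 1 value for the whole gene does not show whether these transcripts include the part removed from the allele, so the level is that of the mutated locus and does not check the genotype.

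Nr2e3, the nuclear receptor that NRL activates in rods (chromosome 9, 59942771 to 59960834), was at 3.67, 3.79 and 3.62 FPKM in control libraries 1, 2 and 3 and at 4.23, 4.45 and 4.58 FPKM in triple-deficient libraries 1, 2 and 3. The groups did not overlap, and the gap between the highest control and the lowest triple-deficient library was 0.437 FPKM. The mean was 19.6% higher, a log2 difference of 0.21 (SE 0.064, limma adjusted p = 0.836), with values from 0.19 to 0.23 when each library was left out in turn. At about 222 to 308 fragments per library, as estimated from the steps of low FPKM values, the counting error alone was 6.72% of a value in the lowest library, larger than the coefficients of variation of 2.31% in controls and 4.04% in triple-deficient libraries. A predicted non-coding gene, Gm7616, lies within the RefSeq span of Nr2e3, and the counting of strands is not given in the sources used here.

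Rorb, the nuclear receptor needed for Nrl to be switched on in precursors (chromosome 19, 18930609 to 19111196), was at 27.8, 25.7 and 26.1 FPKM in control libraries 1, 2 and 3. In triple-deficient libraries 1, 2 and 3 it was at 25.2, 25.5 and 26.9 FPKM. The groups overlapped, and the change was -0.03 on the log2 scale (SE 0.051, 95% interval -0.15 to 0.08, limma adjusted p = 0.965). The ratio of Nrl to Nr2e3 in FPKM was 10.1 to 13.4 in controls and 11.5 to 12.4 in triple-deficient libraries, so the higher levels of both left their ratio within the range of the controls.

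Among the factors of the photoreceptor lineage, Otx2, the homeobox factor that makes precursors photoreceptors and that bipolar cells and pigment epithelium also express (chromosome 14, 48656781 to 48667644), was the most abundant of the 10 by mean over the libraries. It was at 233, 218 and 232 FPKM in control libraries 1, 2 and 3 and at 208, 224 and 229 FPKM in triple-deficient libraries 1, 2 and 3. The groups overlapped, with a log2 difference of -0.05 (SE 0.055, 95% interval -0.18 to 0.08, limma adjusted p = 0.959). The summed level of 12 pigment epithelium markers was 48.9 to 63.6 FPKM in controls and 37.0 to 51.8 FPKM in triple-deficient libraries, and no marker was listed at 0 in all libraries. These sums overlapped, at 63.6, 51.4 and 48.9 FPKM in control libraries 1, 2 and 3 and 37.0, 51.4 and 51.8 FPKM in triple-deficient ones. Of the 9 markers tested, 7 had changes below 0. At an unadjusted p below 0.05 in the limma fit 3 had lower values, beside 3.33% of all genes. The part of these cells in the Otx2 values was not tested. In whole retina, fewer cells of a type and less RNA per cell cannot be told apart, here or for any other gene. The ratio of Otx2 to Crx, its target and partner, was 0.513 to 0.555 in controls and 0.502 to 0.535 in triple-deficient libraries.

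Prdm1, the zinc finger repressor that keeps precursors from the bipolar fate (chromosome 10, 44437174 to 44528558), was at 26.7, 21.3 and 28.1 FPKM in control libraries 1, 2 and 3 and at 27.2, 27.0 and 28.5 FPKM in triple-deficient libraries 1, 2 and 3. A single library, control 2, was low, as it was for Nrl, and the other 5 lay between 26.7 and 28.5 FPKM. The log2 change of 0.13 (SE 0.093, limma adjusted p = 0.950) was 0.01 without control 2.

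Rax, the homeobox factor of the early eye field that later acts on photoreceptor genes and is also expressed in Müller glia (chromosome 18, 65934639 to 65939089), was at 132, 128 and 123 FPKM in control libraries 1, 2 and 3. In triple-deficient libraries 1, 2 and 3 it was at 118, 113 and 85.5 FPKM. All 3 triple-deficient libraries were below all 3 controls, and library 3 was far lower than the other 2. The mean was 17.5% lower, a log2 difference of -0.29 (SE 0.109, 95% interval -0.54 to -0.04, limma adjusted p = 0.912). Without triple-deficient library 3 the change was -0.15, and with the trends in GC content and length removed it was -0.27, with library 3 then at 87.4 FPKM. The summed level of 12 Müller glia markers was 2142 to 2210 FPKM in controls and 1957 to 2106 FPKM in triple-deficient libraries, lowest in the same library 3. No marker was listed at 0 in all libraries. Of the 12, 5 had changes below 0 and 7 above, with a median of 0.006. The sum includes Apoe, which alone was at 569 to 630 FPKM in controls and 437 to 545 FPKM in triple-deficient libraries. Their part in the Rax values was not tested.

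**Figure D2:**
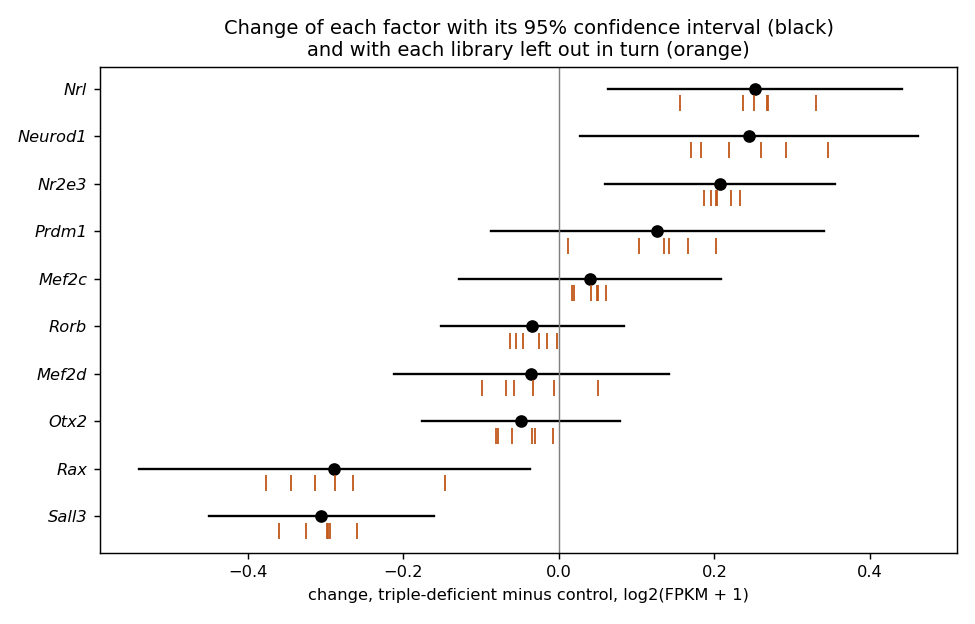
Change of each factor (horizontal axis, triple-deficient less control, in log2(FPKM + 1)) as a black point with its 95% confidence interval, and orange ticks for the change with each of the 6 libraries left out. The intervals of Nrl, Neurod1, Nr2e3, Rax and Sall3 exclude 0 before adjustment over all genes, and the ticks of Rax reach from -0.38 to -0.15.

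Of the factors tied to cone identity, Sall3 had the smallest p of the 10. This zinc finger factor, which activates short-wavelength opsin in cones and is also needed in horizontal cells (chromosome 18, 80966989 to 80987021), was at 14.9, 14.9 and 14.3 FPKM in control libraries 1, 2 and 3 and at 12.7, 11.6 and 10.9 FPKM in triple-deficient libraries 1, 2 and 3. Every triple-deficient library lay at least 1.59 FPKM below every control. The mean was 20.2% lower, with a change of -0.31 on the log2 scale (SE 0.063, 95% interval -0.45 to -0.16, limma adjusted p = 0.508). By unadjusted p it ranked 29th of the 14325 genes. The change stayed between -0.36 and -0.26 over all 18 alternatives, with adjusted p-values of 0.180 to 0.998. With GC and length trends removed, Sall3 was at 14.6 to 14.8 FPKM in controls and 11.3 to 12.3 FPKM in triple-deficient libraries. Its target Opn1sw was at 1503 to 1568 FPKM in controls and 1406 to 1565 FPKM in triple-deficient libraries, which overlap. The summed level of 5 horizontal cell markers was 97.7 to 100.6 FPKM in controls and 95.2 to 98.2 FPKM in triple-deficient libraries. It includes Tfap2b, also an amacrine marker, which alone was at 65.3 to 68.6 FPKM in controls and 62.9 to 67.3 FPKM in triple-deficient libraries. Of the 5 markers, 2 had changes above 0 and 3 below. The part of these markers in the Sall3 values was not tested.

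Neurod1, a helix-loop-helix factor that supports cone genes and photoreceptor survival and is also found in amacrine cells (chromosome 2, 79452637 to 79456636), was at 177, 165 and 211 FPKM in control libraries 1, 2 and 3. It was at 237, 213 and 204 FPKM in triple-deficient libraries 1, 2 and 3. Control 3 lay within the range of the triple-deficient libraries, so the groups overlapped. The mean was 18.2% higher, a log2 difference of 0.24 (SE 0.095, 95% interval 0.03 to 0.46, limma adjusted p = 0.921). Its unadjusted p of 0.0320 ran up to 0.124 when single libraries were left out, and was 0.0651 with GC and length trends removed. The summed level of 12 amacrine markers overlapped between groups, at 721 to 754 and 707 to 744 FPKM.

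The Mef2 factors, MADS-box activators of which MEF2D works with CRX at photoreceptor genes, differed from each other in level far more than between genotypes. Mef2d (chromosome 3, 88141941 to 88172091) was at 129, 125 and 119 FPKM in control libraries 1, 2 and 3 and at 132, 125 and 107 FPKM in triple-deficient libraries 1, 2 and 3. The groups overlapped, and the log2 change of -0.04 (SE 0.077, limma adjusted p = 0.975) became 0.05 without triple-deficient library 3. Mef2c (chromosome 13, 83504017 to 83667079), a gene that NRL activates in rods and that microglia and vessels also express, was at 1.93, 1.93 and 1.81 FPKM in control libraries 1, 2 and 3 and at 1.96, 2.07 and 1.88 FPKM in triple-deficient libraries 1, 2 and 3. These also overlapped, differing by 0.04 on the log2 scale (SE 0.073, limma adjusted p = 0.969). Mef2d stood at 57.0 to 67.3 times the FPKM of Mef2c in every library. At about 215 to 334 estimated fragments, Mef2c was measured with the same coarse counting as Nr2e3. Predicted non-coding genes overlap both Mef2 genes in RefSeq.

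FPKM is scaled by length, so levels can also be ordered between genes. From highest to lowest median rank the order was Otx2, Neurod1, then Mef2d and Rax with equal median rank, Nrl, Prdm1, Rorb, Sall3, Nr2e3 and Mef2c. Nrl had rank 5, Sall3 rank 8, Nr2e3 rank 9 and Mef2c rank 10 in every library. Otx2 and Neurod1 were apart in the controls and overlapped in the triple-deficient libraries, where Neurod1 was above Otx2 in library 1. Mef2d and Rax overlapped in both groups, yet Rax was above Mef2d in all 3 controls and below it in all 3 triple-deficient libraries. Prdm1 and Rorb overlapped in the controls only. All other neighbours were apart in both groups. Otx2 ranked 230th, Nrl 1717th and Mef2c 12244th of the 14325 genes tested by mean level.

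**Figure D3:**
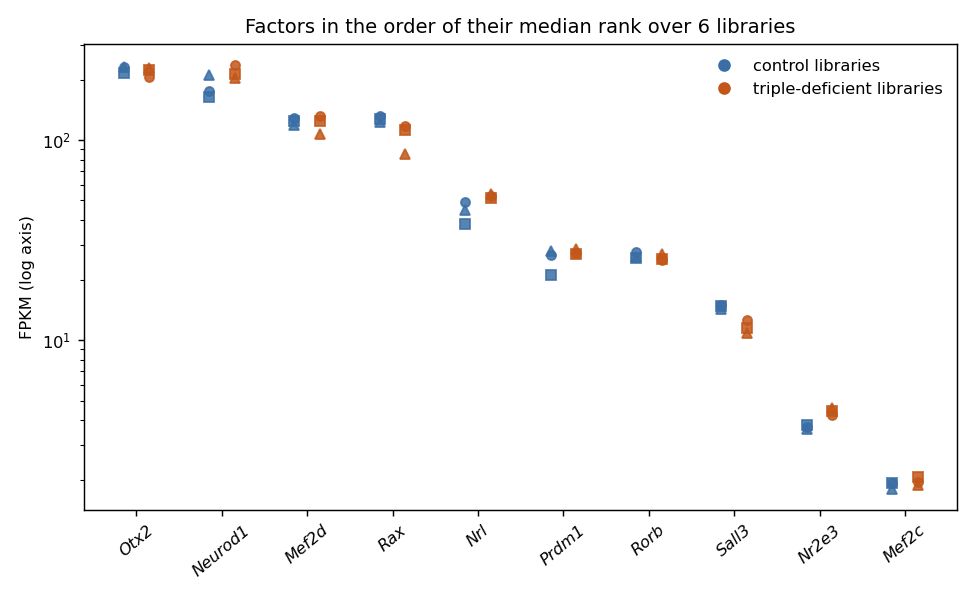
FPKM on a log axis of the 10 factors, ordered by their median rank, in control (blue) and triple-deficient (orange) libraries (circle, square and triangle for libraries 1, 2 and 3). The factors run from 208 to 233 FPKM for Otx2 down to 1.81 to 2.07 FPKM for Mef2c, and in each group only 2 pairs of neighbours overlap.

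A list of 45 other regulators of photoreceptor and retinal cell fate was read in the same fit. None of the 42 tested passed (limma, adjusted over all genes). At an unadjusted p below 0.05 in the limma fit there were 2 with higher and 3 with lower values, beside 1.76% and 3.33% of all genes. Insm1, a zinc finger factor of newborn neurons, was at 36.2, 34.8 and 33.1 FPKM in control libraries 1, 2 and 3 and at 28.9, 27.6 and 24.9 FPKM in triple-deficient libraries 1, 2 and 3 (log2 change -0.35, SE 0.064, limma adjusted p = 0.452). Sox4, a factor of neuronal differentiation, was at 23.4 to 26.0 FPKM in controls and 19.7 to 22.2 FPKM in triple-deficient libraries (-0.24, limma adjusted p = 0.655). Samd11, a Polycomb partner in photoreceptors, was at 46.6 to 54.1 and 56.2 to 60.5 FPKM (0.21, limma adjusted p = 0.836). None of these 3 overlapped between groups, but they were picked by smallest p, so this is no separate result. Of the 42 tested, 4 lay higher and 7 lower without overlap, beside 4.86% and 5.64% of all genes. Outside the rule for naming genes and chosen after their values were seen, the other 2 were Tbx2, a T-box factor of short-wavelength cones, at 37.9 to 43.2 and 26.6 to 36.4 FPKM, and Thrb, the thyroid hormone receptor of cones, at 22.4 to 24.7 and 25.0 to 26.6 FPKM. Without triple-deficient library 3 the log2 changes of Insm1 and Tbx2 were -0.29 and -0.23, and with GC and length trends removed they were -0.21 and -0.18, against -0.35 and -0.34 over all libraries. Thrb had an unadjusted p of 0.0664 without that library and 0.0870 with the trends removed, in the limma fits. The list's median change was -0.03, with 16 changes above 0 and 26 below.

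The relatives of the 10 factors give the family context. Of 23 such genes 20 were tested, none passed, and 3 had lower values at an unadjusted p below 0.05 in the limma fit, beside 3.33% of all genes with lower values. They were Prdm8, a zinc finger factor of bipolar and amacrine cells, at 47.5 to 48.8 FPKM in controls and 39.0 to 43.0 FPKM in triple-deficient libraries, Prdm13, an amacrine factor, at 11.1 to 13.7 and 8.68 to 10.3 FPKM, and Mafa, a large Maf factor related to Nrl, at 1.36 to 1.76 and 0.575 to 1.03 FPKM. Their log2 changes were -0.21, -0.34 and -0.46 (limma adjusted p = 0.651, 0.668 and 0.655). With GC and length trends removed Prdm13 and Mafa were at -0.20 and -0.24, and without triple-deficient library 3 at -0.29 and -0.36. The closest relatives at higher levels overlapped between groups. Mef2a was at 32.1 ± 0.149 and 31.6 ± 1.23 FPKM (SD, n = 3), Rora at 32.7 ± 2.84 and 34.1 ± 0.454 FPKM, Sall2 at 24.1 ± 0.770 and 23.9 ± 0.587 FPKM, and Neurod4, of bipolar and photoreceptor precursors, at 96.7 ± 1.81 and 99.1 ± 8.07 FPKM. These 4 were also chosen after their values were seen. The family list had a median change of -0.02.

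Rod and cone genes lie downstream of these factors. Of 17 rod genes 15 were tested and none passed. At an unadjusted p below 0.05 in the limma fit 4 had higher values and none lower, beside 1.76% of all genes with higher values. Pde6a, of the rod phosphodiesterase, was at 11.5 to 13.8 FPKM in controls and 17.0 to 22.4 FPKM in triple-deficient libraries. Susd3 was at 3.33 to 3.67 and 4.29 to 5.69 FPKM, and Nt5e, a surface enzyme of rod precursors, at 12.1 to 15.1 and 16.4 to 16.6 FPKM. None of the 3 overlapped between groups, but they were picked by smallest p, so this is no separate result. Of the 15 tested, 4 did not overlap, all higher, beside 4.86% of all genes. The list's median change was nonetheless -0.005, with 9 of the 15 below 0, and Gnat1 was below the filter at the levels given above. Of 15 cone genes, all tested, none passed over the 6 libraries, and 1 had higher and 2 had lower values at an unadjusted p below 0.05 in the limma fit, beside 5.09% of all genes in either direction. Kcne2, a potassium channel subunit, was at 233 to 235 FPKM in controls and 255 to 283 FPKM in triple-deficient libraries. Gulo, the enzyme of vitamin C synthesis, was at 85.5 ± 2.11 and 78.1 ± 3.96 FPKM, and Slc24a2, the cone exchanger, at 17.1 ± 1.72 and 11.5 ± 5.72 FPKM (SD, n = 3). Slc24a2 was at 8.02, 8.42 and 18.1 FPKM in triple-deficient libraries 1, 2 and 3, so that libraries 1 and 2 lay below every control and library 3 did not. Its log2 change was -0.62 (limma adjusted p = 0.940). Without library 3 it was -0.97 and passed the threshold (limma adjusted p = 0.0140). The cone list's median was -0.01.

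**Figure D4:**
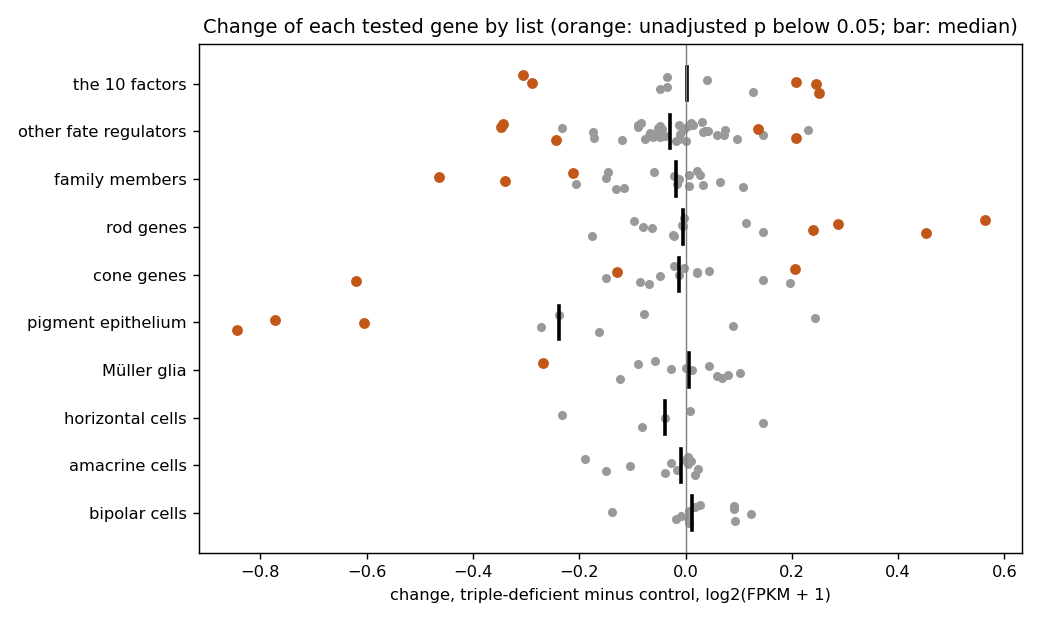
Change of every tested gene (horizontal axis, triple-deficient less control, in log2(FPKM + 1)) in the 10 factors, in related lists and in marker lists of other cells, with unadjusted limma p below 0.05 in orange and the median as a black bar. The medians of the lists drawn lie within 0.05 of 0 except that of the pigment epithelium, at -0.24. Markers of vessels and microglia, with medians of 0.04 and -0.07, are not drawn.

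For each factor the gene with the most similar profile was sought among 7846 genes averaging 10 FPKM or more, by the root mean square distance of standardised log2(FPKM + 1) values over the 6 libraries (0 means identical shape). Rax was closest to Uqcrq, a subunit of respiratory complex III, at a distance of 0.073, and Mef2d to Atp13a2 at 0.076. Prdm1 was closest to Tex2 (0.089), Nrl to Lig3 (0.107), Mef2c to Ikbkb (0.116), Sall3 to Arpc5 (0.124) and Nr2e3 to Nhp2l1 (0.125). Otx2, Rorb and Neurod1 had their nearest genes, U2af1, Zfp160 and Ptdss1, at 0.163, 0.164 and 0.178. The measure compares shape and not size. Each partner is the nearest of 7846 profiles over only 6 libraries, so a near match can be found for any gene. Whether the partners share regulation was not tested. Uqcrq was at 196 to 208 FPKM in controls and 140 to 185 FPKM in triple-deficient libraries, lowest in library 3 as Rax was, whereas Lig3 varied only from 11.5 to 12.3 FPKM over all libraries.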

How the data were processed

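RNA from whole retinas was extracted with TRIzol and made into stranded, mRNA-selected libraries, per the labels' protocols. The authors deposited 1 table of FPKM per library. TopHat2 2.1.1, Bowtie2 2.3.5.1, Cufflinks 2.2.1, Cuffdiff and mm10 appear in the submitters' processing notes, and their settings and the annotation were not given in these sources. FPKM sums were 385962 to 396697 per library. Read totals are not in the tables. Steps of low values put depth at about 18.1 to 27.1 M fragments, an estimate, so no counts were rebuilt. Estimated fragments of a gene used its longest GENCODE M21 transcript.

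Genotype was tested with limma 3.58.1 (R 4.3.3, mean-variance trend, two-sided) on log2(FPKM + 1) of genes averaging 0.5 FPKM or more, which understates changes of low genes. The test was checked on simulated data. Alternatives were pseudocounts, filters, scaling, weights, the replicate number as a block, removal of GC and length trends (99.3% of genes had both) and leaving out each library. Named genes are the 10 factors, the targeted genes, the 3 genes with the smallest p of each list and the nearest profile of each factor. Lists covered other regulators, family members, rod and cone genes, and markers of Müller glia, bipolar, horizontal and amacrine cells, pigment epithelium, vessels and microglia. The factors and lists were chosen with earlier results of these data known. Coordinates are those of RefSeq for GRCm38.p6. A planned comparison of Mef2c and Mef2d protein sequences was not made. One rod gene of the lists is not reported here by name.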

Additional observations from a re-analysis of the deposited data

How the results depend on the processing

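No factor passed the adjusted threshold under any of the 18 alternatives, and the directions of Nrl, Nr2e3, Neurod1, Prdm1, Otx2, Rorb, Sall3 and Rax held in each alternative in which they were fitted. Mef2c changed sign with GC and length trends removed, with or without the replicate block (-0.00196 for both), and Mef2d did so without triple-deficient library 3 (0.0499; -0.0984 to 0.0499 over the libraries left out). The cause was not tested. The count of factors with unadjusted p below 0.05 was 5, and 3 to 5 with 1 library left out (3 without control 1 or without control 2). The count with groups that do not overlap was 4, and 4 to 7 with 1 library left out (7 without triple-deficient 3), where 18.5% to 22.8% of all genes do not overlap. Genes called over all genes were 4, 2 with no filter, 2 with robust shrinkage and 3 to 11 with 1 library left out (7 without control 3, 10 without triple-deficient 1 and 11 without triple-deficient 3). The replicate block changed no call (4 genes called, 5 factors at unadjusted p below 0.05). The labels do not say whether equal numbers mark littermate pairs, so the block was run only as an alternative. Same-numbered libraries of the 2 groups correlated at 0.02, 0.11 and 0.07 in their deviations from group means. With 3 libraries per group these values cannot show whether a pairing exists. Of the list medians, other regulators moved to -0.00526 with array weights (-0.0493 to 0.00683 over the libraries left out), family members ran from -0.0485 to -0.0219 over the libraries left out, rod genes moved to 0.0297 with array weights and to 0.0414 with GC and length trends removed, with or without the replicate block, bipolar markers moved to 0.0366 with array weights (0.00947 to 0.0379 over the libraries left out), and pigment epithelium moved to -0.395 at a pseudocount of 0.1. The filter at 5 FPKM removed Nr2e3 and Mef2c, which gave no value there.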

Other observations

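No bipolar marker of 12, no horizontal marker of 5 and no amacrine marker of 12 had p below 0.05 before adjustment in the limma fit, with median log2 changes of 0.01, -0.04 and -0.008. Changes above and below 0 numbered 9 and 3 for bipolar, 2 and 3 for horizontal and 5 and 7 for amacrine markers. The bipolar markers Prkca and Pcp2 averaged 55.7 and 263 FPKM in controls and 59.4 and 287 FPKM in triple-deficient libraries. Onecut2, a horizontal marker, lay higher without overlap, at 1.49 to 1.57 and 1.71 to 1.98 FPKM, beside 4.86% of all genes. Bhlhe23, a factor of rod bipolar cells, averaged 16.9 ± 0.747 FPKM over the controls and 15.3 ± 0.947 FPKM over the triple-deficient libraries (SD, n = 3), Onecut1, a factor of horizontal cells, at 3.96 ± 0.382 and 3.24 ± 0.595 FPKM, and Slc32a1, the inhibitory vesicle transporter of amacrine and horizontal cells, at 38.6 ± 0.904 and 33.9 ± 4.51 FPKM. Slc32a1 was at 38.0, 34.8 and 29.1 FPKM in triple-deficient libraries 1, 2 and 3, and its log2 change of -0.19 was -0.08 without library 3 and -0.06 with GC and length trends removed. Among 12 Müller glia markers (median 0.006) Apoe, a lipid carrier, ranged over 569 to 630 FPKM for controls and 437 to 545 FPKM for triple-deficient libraries (limma adjusted p = 0.853).

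Outside the neural retina, the 9 tested markers of the pigment epithelium had a median log2 change of -0.24, which ran from -0.34 to -0.14 with 1 library left out (-0.14 without control 1). Tyrp1, Ttr and Pmel had lower values at an unadjusted p below 0.05 in the limma fit, beside 3.33% of all genes, and none passed over the 6 libraries. Pmel, a melanosome protein, had a log2 change of -0.84 (limma adjusted p = 0.651), which passed without control 3 (-1.12, limma adjusted p = 0.0233). Ttr, a retinol and thyroxine carrier, ranged over 12.1 to 18.0 FPKM for controls and 7.42 to 10.6 FPKM for triple-deficient libraries (limma adjusted p = 0.508). The 10 markers of vessels had a median of 0.04 and the 10 of microglia a median of -0.07, none with p below 0.05 before adjustment in the limma fit. Changes above and below 0 numbered 8 and 2 for vessels and 1 and 9 for microglia.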
